A study of Mus musculus with 12 samples.

Results

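The genes described are 48 components of protein entry into the endoplasmic reticulum (ER) and of vesicle transport between the ER and the Golgi in mouse liver. A locus of the deposited expression table belonged to the set when its gene column held 1 of 48 listed symbols. The list was drawn up with earlier results of these data known. All 48 were found, among 23951 named loci of 27109 in all. They fell into 5 classes by role, with 18 genes of targeting and translocation, 5 of the signal peptidase, 11 of the COPII coat, 6 of the COPI coat and 8 cargo receptors. Livers were from C57BL/6 mice, and RNA with poly(A) tails was sequenced 6 h after an intraperitoneal injection. The 4 groups were LsATF4-KO mice given 1 mg/kg tunicamycin, LsATF4-KO mice given 0.3% DMSO, wild-type mice given 1 mg/kg tunicamycin and wild-type mice given 0.3% DMSO, with 3 libraries each. By its label and the design text, LsATF4-KO denotes loss, in the liver, of ATF4, a transcription factor made during stress, and tunicamycin blocks N-linked glycosylation, which leaves misfolded protein in the ER. No source used here gives the age or sex of the mice or the Cre driver. The design asked what loss of ATF4 does without stress and during tunicamycin stress.

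A secreted or membrane protein is recognised on the ribosome by the signal recognition particle (SRP), handed to the SRP receptor and threaded through the SEC61 channel, which the translocon-associated protein (TRAP) complex and TRAM1 assist. The signal peptidase then removes its signal peptide. COPII, built on a SAR1 GTPase with an inner SEC23-SEC24 layer and an outer SEC13-SEC31 layer, carries finished cargo out of the ER, and COPI returns escaped ER residents, which KDEL receptors recognise. In liver this route carries the plasma proteins that hepatocytes secrete. The unfolded protein response raises many of its genes through the transcription factors XBP1 and ATF6, while ATF4 is best known for genes of amino acid supply and redox balance.

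Promoters are shown for the members whose window held the core of the unfolded protein response element, a site of XBP1 and ATF6, and for Sar1a and Sar1b, the paralogues among the 48 that moved in opposite directions. RefSeq promoter windows on GRCm38.p6, from 250 bases before to 50 bases after a transcription start, were matched by symbol for 37 of the 48 genes. The core, TGACGTGG on either strand, stood in the windows of 5 of the 37 genes (13.5%), against 0.676% of all 32851 windows. These genes were Sec24d, Copb1, Copb2, Kdelr3 and Sec23a. The printed stretch runs from 100 bases before the start to 20 bases after it on the gene's own strand, with the core in capitals. Positions are chr3:123267396-123267515 on the plus strand for Sec24d, chr7:114254661-114254780 on the minus strand for Copb1, chr9:98563631-98563750 on the plus strand for Copb2, chr15:79516308-79516427 on the plus strand for Kdelr3, chr12:59011998-59012117 on the minus strand for Sec23a, chr10:61680185-61680304 on the plus strand for Sar1a and chr11:51763563-51763682 on the plus strand for Sar1b.
Sec24d: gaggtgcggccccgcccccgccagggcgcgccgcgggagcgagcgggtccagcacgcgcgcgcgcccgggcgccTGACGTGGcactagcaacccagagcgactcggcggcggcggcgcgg
Copb1: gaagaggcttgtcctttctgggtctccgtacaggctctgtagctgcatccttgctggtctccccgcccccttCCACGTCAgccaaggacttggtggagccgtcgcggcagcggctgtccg
Copb2: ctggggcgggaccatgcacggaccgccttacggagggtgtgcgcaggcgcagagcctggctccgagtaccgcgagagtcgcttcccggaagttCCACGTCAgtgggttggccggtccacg
Kdelr3: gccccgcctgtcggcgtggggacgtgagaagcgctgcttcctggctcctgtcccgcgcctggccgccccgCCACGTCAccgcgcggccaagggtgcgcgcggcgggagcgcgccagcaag
Sec23a: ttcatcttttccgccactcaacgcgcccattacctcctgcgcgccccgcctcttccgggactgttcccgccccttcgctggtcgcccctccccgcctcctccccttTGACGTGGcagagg
Sar1a: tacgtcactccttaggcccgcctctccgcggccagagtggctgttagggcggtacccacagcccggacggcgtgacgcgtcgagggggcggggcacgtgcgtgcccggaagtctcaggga
Sar1b: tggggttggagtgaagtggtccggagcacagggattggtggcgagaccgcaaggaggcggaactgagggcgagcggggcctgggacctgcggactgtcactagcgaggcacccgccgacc

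Neither SAR1 promoter held that core in its 300 bases. The shorter run CCACG, which is the reverse complement of part of the core and forms part of the ER stress element, stood in 24 of the 37 genes' windows (64.9%), against 32.8% of all windows, and Sar1a was among the 24. The CCAAT box followed after 9 bases by CCACG, the full ER stress element, was in 0 of the 37, against 0.119% of all windows, and ER stress element II was also in 0 of the 37, against 0.0365%. The C/EBP-ATF response element TGATGNAA, the type of site that ATF4 binds, was in 1 of the 37 (Kdelr1), against 3.97% of all windows. Both strands were searched for each motif. A match says only that these letters lie in the window.

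Levels are in FPKM, a measure of fragments per transcript length and library size, which the authors give as 1 value per locus and group with the 3 libraries pooled. They carry no SD, and library depths are unknown. A member was called higher or lower when the authors' Cuffdiff test had a deposited q under 0.05, and an SE is given for a log2 fold change where it could be recovered from the deposited test statistic. The LsATF4-KO DMSO libraries alone ran on sequencing lane 5 and the other 9 libraries on lane 4. For the tunicamycin response of LsATF4-KO livers and for the genotypes with DMSO, the group therefore cannot be told apart from its lane. The same holds for the difference between the responses of the genotypes. The locus that carries Atf4 is merged with Cacna1i in the table and stood at 114 FPKM in LsATF4-KO livers with tunicamycin, 22.8 in LsATF4-KO livers with DMSO, 356 in wild-type livers with tunicamycin and 46.9 in wild-type livers with DMSO. In the authors' deposited table it was called lower in LsATF4-KO than in wild-type livers with tunicamycin, with a log2 change of −1.64, and not called with DMSO, with a log2 change of −1.04 and a q of 0.270. It was called higher with tunicamycin in LsATF4-KO livers as well. Which part of Atf4 was deleted is not known from the sources used here, so the locus is a limited check of the label. Of 7 hepatocyte markers, 6 stood at over 100 FPKM in every group. Alb is listed at 0 with a test status of HIDATA and not OK, so it was not tested. The sums were 9341 FPKM with tunicamycin and 14228 with DMSO in LsATF4-KO livers, and 11707 and 18780 in wild-type livers. With tunicamycin against DMSO, 3 markers were called lower in LsATF4-KO livers and 2 in wild-type livers, and 0 higher. Hnf4a was called lower in LsATF4-KO than in wild-type livers with tunicamycin. Among other secretory cells, 8 markers of pancreatic acini summed to at most 1.13 FPKM in any group, with Prss1 and Amy2a5 listed at 0. The 5 plasma cell markers summed to 80.8 FPKM in LsATF4-KO livers with tunicamycin, 143 in LsATF4-KO livers with DMSO, 58.5 in wild-type livers with tunicamycin and 149 in wild-type livers with DMSO, nearly all of it Sdc1, which hepatocytes also express, and the other 4 markers were each under 1 FPKM in every group. Markers of adrenal cortex, a tissue outside the liver, summed to 1280 FPKM over 7 genes in LsATF4-KO livers with tunicamycin, against 6.77 in LsATF4-KO livers with DMSO, 23.5 in wild-type livers with tunicamycin and 9.24 in wild-type livers with DMSO. The 8 skeletal muscle markers likewise summed to 268, 1.88, 4.11 and 1.59 FPKM in those groups, the 5 adrenal medulla markers to 116, 0.0332, 0.204 and 0.0767, and the 6 fat markers to 263, 28.1, 32.8 and 18.8. Despite these sums, tunicamycin against DMSO in LsATF4-KO livers gave higher calls for only 1 adrenal cortex marker. It gave 4 for muscle, 3 for adrenal medulla and 4 for fat. Star, at 232 against 0.641 FPKM, had a q of 0.222 there. Pooled values do not show whether all 3 libraries carried these transcripts. Of the adrenal cortex sum of 23.5 FPKM in wild-type livers with tunicamycin, 20.8 was Akr1b7, a gene called higher with tunicamycin in both genotypes. In livers with DMSO, 6 of 7 endothelial markers were called higher in LsATF4-KO than in wild type, with sums of 127 against 83.4 FPKM. With tunicamycin 0 of the 7 were called higher and 2 lower in LsATF4-KO than in wild type, with sums of 74.8 against 104 FPKM. Under tunicamycin against DMSO, 4 were called lower in LsATF4-KO livers and 3 higher in wild-type livers. The part of these other tissues and cells in the results was not tested. The wild-type response to tunicamycin compares no LsATF4-KO library, but its deposited q-values were adjusted together with the tests of the other comparisons.

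Tunicamycin raised most of the 48 genes in both genotypes. In LsATF4-KO livers 36 were called higher and 1 lower, where 33% of all 15534 tested loci were called (18.1% higher and 14.8% lower). In wild-type livers 39 were called higher and 1 lower, where 37.1% of all 14998 tested loci were called (18.1% higher and 19% lower). The median log2 fold change over the 48 was 1.00 in LsATF4-KO livers and 1.14 in wild-type livers, against 0.02 and −0.02 over all tested named loci in those genotypes. Of the 48, 24 were called and at least 2-fold higher in LsATF4-KO livers and 27 in wild-type livers, against 11.7% of tested named loci in either genotype. Fewer cells of a type and less RNA per cell cannot be told apart in these whole-liver values.

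Summed over the 48 genes, the level was 5389 FPKM in LsATF4-KO livers with tunicamycin, 2569 in LsATF4-KO livers with DMSO, 5986 in wild-type livers with tunicamycin and 2816 in wild-type livers with DMSO. This was 1.06%, 0.449%, 1.07% and 0.413% of the summed FPKM of all loci in those groups, in which Alb and any other locus listed at 0 has no part. With tunicamycin the highest member was Ssr3 in LsATF4-KO livers and Mcfd2 in wild-type livers. With DMSO it was Ssr2 in LsATF4-KO livers and Sar1b in wild-type livers. Over 100 FPKM stood 21 members in LsATF4-KO livers with tunicamycin, against 6 with DMSO, and 22 in wild-type livers with tunicamycin, against 8 with DMSO.

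**Figure D1:**
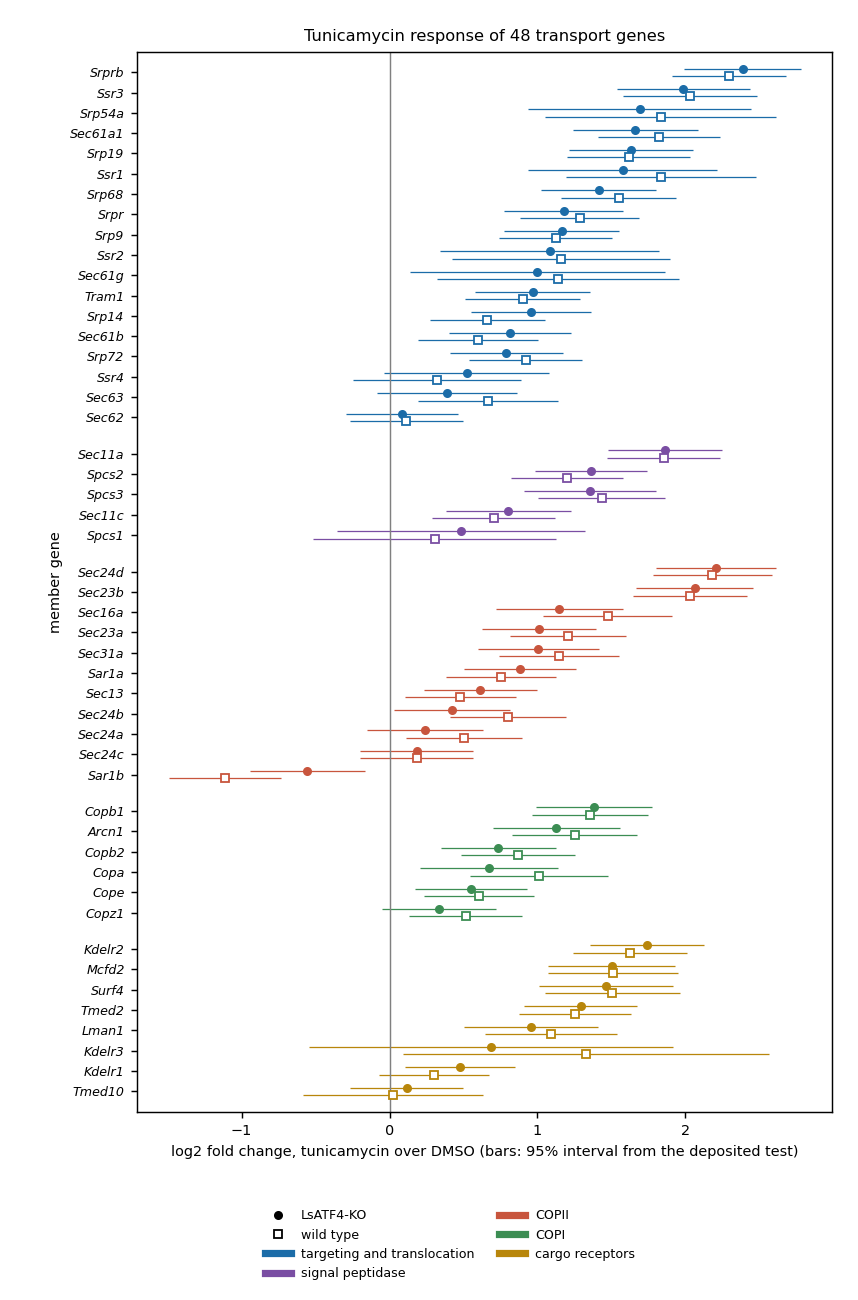
Log2 fold change of tunicamycin over DMSO for each of the 48 genes (rows, grouped by class in colour), with filled circles for LsATF4-KO livers and open squares for wild-type livers; bars are 95% intervals recovered from the deposited test. All points but those of Sar1b lie above 0, and the ladder runs to 2.39 for Srprb in LsATF4-KO livers.

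Targeting to the ER rose as a group. All 6 SRP members and both receptor subunits were called higher in each genotype. Srprb, the membrane-anchored β subunit of the SRP receptor, stood at 54.4 FPKM with tunicamycin and 10.4 FPKM with DMSO in LsATF4-KO livers, and at 58.3 FPKM with tunicamycin and 11.9 FPKM with DMSO in wild-type livers. Its deposited folds of 5.23 in LsATF4-KO and 4.91 in wild-type livers were the highest of the 48 in both genotypes, with log2 changes of 2.39 ± 0.20 and 2.29 ± 0.20 (recovered SE; changes from the authors' deposited table). Its partner Srpr, the GTPase that docks SRP, stood at 148 FPKM with tunicamycin and 65.4 FPKM with DMSO in LsATF4-KO livers, and at 163 FPKM with tunicamycin and 66.9 FPKM with DMSO in wild-type livers. Srpr was thus the more abundant subunit in all 4 groups, and its ratio to Srprb was smaller with tunicamycin. The ratio was 2.72 with tunicamycin and 6.29 with DMSO in LsATF4-KO livers, and 2.80 with tunicamycin and 5.63 with DMSO in wild-type livers. Among SRP proteins, Srp19, which helps the particle assemble, stood at 75.4 FPKM with tunicamycin and 24.3 FPKM with DMSO in LsATF4-KO livers, and at 80.2 FPKM with tunicamycin and 26.1 FPKM with DMSO in wild-type livers. The authors' deposited table gives Srp68 a 2.67-fold rise in LsATF4-KO and a 2.93-fold rise in wild-type livers, and its binding partner Srp72 rises of 1.73-fold and 1.89-fold in those genotypes. Srp9 and Srp14, the pair that slows translation on the ribosome, had log2 changes of 1.16 and 0.96 in LsATF4-KO livers and of 1.12 and 0.66 in wild-type livers in the authors' deposited table.

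Srp54a, the subunit that binds the signal peptide, was the lowest member in every group. Its own locus stood at 2.43 FPKM with tunicamycin and 0.753 FPKM with DMSO in LsATF4-KO livers, and at 2.51 FPKM with tunicamycin and 0.705 FPKM with DMSO in wild-type livers. A neighbouring locus that merges Srp54a with the near-identical Srp54b and Srp54c stood at 7.89 FPKM with tunicamycin and 2.34 FPKM with DMSO in LsATF4-KO livers, and at 8.52 FPKM with tunicamycin and 2.27 FPKM with DMSO in wild-type livers. Both loci were called higher in both genotypes, and how reads were shared among the copies is uncertain.

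Within the channel itself, Sec61a1, the pore subunit, rose most. It stood at 238 FPKM with tunicamycin and 75.3 FPKM with DMSO in LsATF4-KO livers, and at 250 FPKM with tunicamycin and 70.7 FPKM with DMSO in wild-type livers, log2 changes of 1.66 ± 0.22 and 1.82 ± 0.21 (recovered SE; changes from the authors' deposited table). Sec61b, the β subunit, stood at 105 FPKM with tunicamycin and 59.9 FPKM with DMSO in LsATF4-KO livers, and at 101 FPKM with tunicamycin and 66.8 FPKM with DMSO in wild-type livers, and was called higher in both. Sec61g, the γ subunit, was low throughout, at 5.40 FPKM with tunicamycin and 2.70 FPKM with DMSO in LsATF4-KO livers, and at 6.23 FPKM with tunicamycin and 2.83 FPKM with DMSO in wild-type livers. Its call was made in wild-type livers only, with a deposited q of 0.0990 in LsATF4-KO livers in the authors' table. The 3 subunits form a single channel. Their highest FPKM was 44.1 times the lowest with tunicamycin and 27.8 times with DMSO in LsATF4-KO livers. In wild-type livers it was 40.1 times with tunicamycin and 25.0 times with DMSO. The lowest was Sec61g throughout, and the SEs of its log2 changes were 0.44 in LsATF4-KO and 0.42 in wild-type livers. The median SE over the 48 was 0.20 in both genotypes. How well FPKM compares between these genes was not tested.

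The TRAP complex held the most abundant members of this class. Ssr3, the γ subunit, stood at 405 FPKM with tunicamycin and 102 FPKM with DMSO in LsATF4-KO livers, and at 467 FPKM with tunicamycin and 114 FPKM with DMSO in wild-type livers. Its log2 changes of 1.99 ± 0.23 and 2.03 ± 0.23 in the authors' deposited table (SE) were the next largest of the class after Srprb. Ssr1, the α subunit, stood at 174 FPKM with tunicamycin and 58.3 FPKM with DMSO in LsATF4-KO livers, and at 182 FPKM with tunicamycin and 51.0 FPKM with DMSO in wild-type livers. Ssr2, the β subunit, stood at 402 FPKM with tunicamycin and 190 FPKM with DMSO in LsATF4-KO livers, and at 401 FPKM with tunicamycin and 180 FPKM with DMSO in wild-type livers. Both were called higher in each genotype. Ssr4, the δ subunit, stood at 150 FPKM with tunicamycin and 105 FPKM with DMSO in LsATF4-KO livers, and at 161 FPKM with tunicamycin and 129 FPKM with DMSO in wild-type livers, and was not called in either, with deposited q of 0.196 and 0.498 in the authors' table. It lies in an interval that the table shares with Idh3g, Pdzd4 and Srpk3, so reads of these loci may not be cleanly parted.

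Sec62 and Sec63 serve a route into the ER that needs less help from SRP. Both changed less than any SEC61 subunit in LsATF4-KO livers, but in wild-type livers Sec63 rose more than Sec61b, which rose 1.51-fold. Sec62 stood at 46.0 FPKM with tunicamycin and 43.4 FPKM with DMSO in LsATF4-KO livers, and at 52.4 FPKM with tunicamycin and 48.5 FPKM with DMSO in wild-type livers. Its log2 changes in the authors' deposited table were 0.08 in LsATF4-KO livers and 0.11 in wild-type livers. The 95% intervals recovered from the test statistic ran from −0.30 to 0.46 in LsATF4-KO and from −0.27 to 0.49 in wild-type livers. Sec63, a J-domain partner of the ER chaperone BiP, stood at 77.8 FPKM with tunicamycin and 59.5 FPKM with DMSO in LsATF4-KO livers, and at 84.8 FPKM with tunicamycin and 53.5 FPKM with DMSO in wild-type livers. The call was missed in LsATF4-KO livers, at 1.31-fold with a q of 0.260, and made in wild-type livers, at 1.59-fold, in the authors' deposited table. Tram1, which helps nascent chains enter the membrane, was called higher in both genotypes, at 1.96-fold in LsATF4-KO livers and 1.87-fold in wild-type livers in the authors' deposited table.

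Of the 5 signal peptidase subunits, 4 were called higher in each genotype, with a class median log2 change of 1.35 in LsATF4-KO and 1.20 in wild-type livers. Sec11a and Sec11c are alternative catalytic subunits. Sec11a stood at 152 FPKM with tunicamycin and 41.7 FPKM with DMSO in LsATF4-KO livers, and at 193 FPKM with tunicamycin and 53.5 FPKM with DMSO in wild-type livers, log2 changes of 1.87 ± 0.20 and 1.85 ± 0.19 (recovered SE; changes from the authors' deposited table). Sec11c stood at 58.3 FPKM with tunicamycin and 33.4 FPKM with DMSO in LsATF4-KO livers, and at 60.6 FPKM with tunicamycin and 37.2 FPKM with DMSO in wild-type livers. Both were called higher, and Sec11a made up 72.2% of the pair's summed FPKM with tunicamycin and 55.5% with DMSO in LsATF4-KO livers, and 76.1% and 59.0% in wild-type livers with tunicamycin and DMSO. Among the accessory subunits, the authors' deposited table gives Spcs2 a 2.57-fold rise in LsATF4-KO and a 2.30-fold rise in wild-type livers, and Spcs3 rises of 2.56-fold and 2.70-fold in those genotypes. Spcs1 stood at 81.0 FPKM with tunicamycin and 58.0 FPKM with DMSO in LsATF4-KO livers, and at 85.8 FPKM with tunicamycin and 69.4 FPKM with DMSO in wild-type livers, and was not called in either. Its interval is shared with Glt8d1, Pbrm1, Gnl3 and 2 small nucleolar RNA genes, and its SEs of 0.43 in LsATF4-KO and 0.42 in wild-type livers stood against a median of 0.20 over the 48 in both genotypes.

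COPII was the most divided class. Of its 11 members, 7 were called higher and 1 lower in LsATF4-KO livers, and 8 higher and 1 lower in wild-type livers. In the inner coat, Sec24d, 1 of 4 paralogues that bind cargo, stood at 129 FPKM with tunicamycin and 28.0 FPKM with DMSO in LsATF4-KO livers, and at 147 FPKM with tunicamycin and 32.4 FPKM with DMSO in wild-type livers. The log2 changes were 2.20 ± 0.21 in LsATF4-KO and 2.18 ± 0.20 in wild-type livers (recovered SE; changes from the authors' deposited table). Sec24c stood at 42.4 FPKM with tunicamycin and 37.3 FPKM with DMSO in LsATF4-KO livers, and at 43.2 FPKM with tunicamycin and 38.1 FPKM with DMSO in wild-type livers, and was not called in either. Sec24d was therefore the highest SEC24 gene with tunicamycin in both genotypes, and Sec24c the highest with DMSO. Sec24a stood at 36.0 FPKM with tunicamycin and 30.5 FPKM with DMSO in LsATF4-KO livers, and at 45.0 FPKM with tunicamycin and 31.8 FPKM with DMSO in wild-type livers. Sec24b stood at 8.79 FPKM with tunicamycin and 6.56 FPKM with DMSO in LsATF4-KO livers, and at 10.7 FPKM with tunicamycin and 6.13 FPKM with DMSO in wild-type livers. These last paralogues were called higher in wild-type livers and not in LsATF4-KO livers, where the authors' deposited q were 0.454 for Sec24a and 0.116 for Sec24b. Sec24d made up 59.7% of the 4 genes' summed FPKM with tunicamycin and 27.4% with DMSO in LsATF4-KO livers, and 59.8% with tunicamycin and 29.9% with DMSO in wild-type livers.

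The same split appeared in SEC23, the GTPase-activating partner of SEC24. Sec23b stood at 91.2 FPKM with tunicamycin and 21.8 FPKM with DMSO in LsATF4-KO livers, and at 103 FPKM with tunicamycin and 25.1 FPKM with DMSO in wild-type livers. Sec23a stood at 70.8 FPKM with tunicamycin and 35.2 FPKM with DMSO in LsATF4-KO livers, and at 87.1 FPKM with tunicamycin and 37.8 FPKM with DMSO in wild-type livers. Both genes were called higher, by 4.18-fold and 2.01-fold in LsATF4-KO livers and by 4.08-fold and 2.31-fold in wild-type livers in the authors' deposited table, so that Sec23b led with tunicamycin and Sec23a with DMSO in both genotypes. In the outer coat, Sec31a was called higher in both, at 2.01-fold in LsATF4-KO and 2.21-fold in wild-type livers in the authors' deposited table. Sec13, which also serves the nuclear pore, stood at 64.4 FPKM with tunicamycin and 42.1 FPKM with DMSO in LsATF4-KO livers, and at 64.2 FPKM with tunicamycin and 46.1 FPKM with DMSO in wild-type livers. Sec13 was called in LsATF4-KO livers and just missed in wild-type livers, with a q of 0.0501 in the authors' deposited table. Sec16a, which organises ER exit sites, stood at 58.9 FPKM with tunicamycin and 26.6 FPKM with DMSO in LsATF4-KO livers, and at 73.3 FPKM with tunicamycin and 26.4 FPKM with DMSO in wild-type livers, and was called higher in both.

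The SAR1 GTPases start COPII assembly, and among the 48 genes they were the only paralogues called in opposite directions. Sar1b, the form whose loss causes chylomicron retention disease in humans, stood at 97.7 FPKM with tunicamycin and 144 FPKM with DMSO in LsATF4-KO livers, and at 97.5 FPKM with tunicamycin and 211 FPKM with DMSO in wild-type livers. It fell in both genotypes, with log2 changes of −0.56 ± 0.20 (q = 0.0253) in LsATF4-KO livers and −1.11 ± 0.19 (q = 0.000396) in wild-type livers in the authors' deposited table. Sar1a stood at 76.4 FPKM with tunicamycin and 41.5 FPKM with DMSO in LsATF4-KO livers, and at 80.1 FPKM with tunicamycin and 47.5 FPKM with DMSO in wild-type livers. It rose in both, by 1.84-fold in LsATF4-KO and 1.69-fold in wild-type livers in the authors' deposited table. Sar1b made up 56.1% of the pair's summed FPKM with tunicamycin and 77.6% with DMSO in LsATF4-KO livers, and 54.9% with tunicamycin and 81.6% with DMSO in wild-type livers. The sum of the pair was 174 FPKM with tunicamycin and 185 with DMSO in LsATF4-KO livers, and 178 with tunicamycin and 258 with DMSO in wild-type livers. Sar1b lies at chromosome 11 51577164 to 51605455 in mm9, and the interval before it, 51505764 to 51570336, is Sec24a, a COPII gene that was called higher in wild-type livers.

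**Figure D2:**
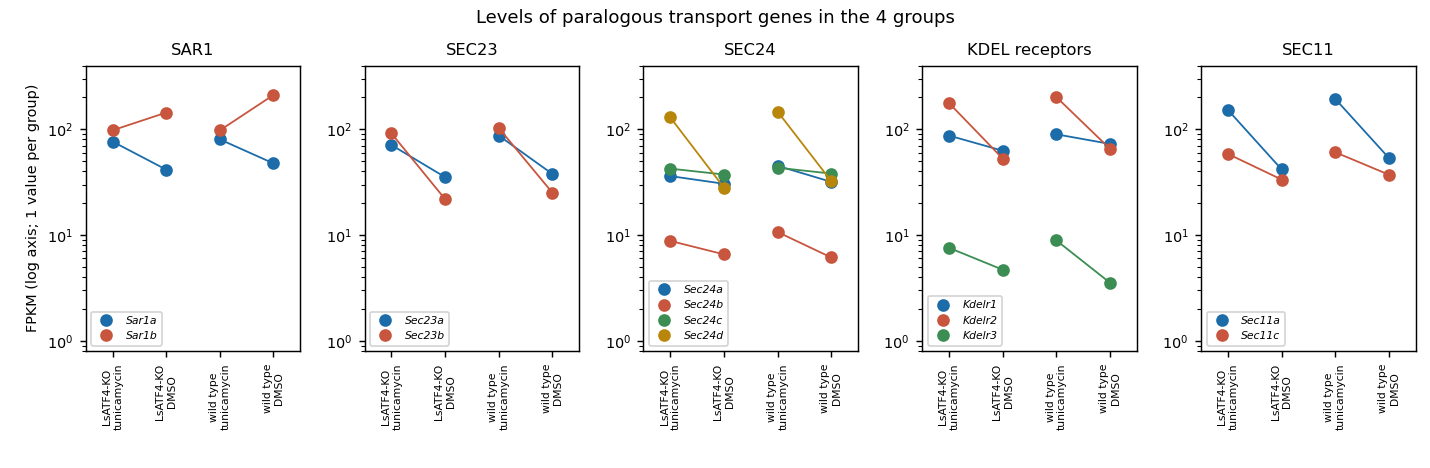
FPKM (log axis, 1 value per group with 3 libraries pooled, so no error bars) of the paralogues of 5 families in the 4 groups, with a line joining tunicamycin to DMSO within a genotype. Sar1a and Sar1b draw together with tunicamycin, while Sec24d, Sec23b, Kdelr2 and Sec11a rise past or away from their paralogues.

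COPI is the coat of Golgi-to-ER vesicles. Of 6 coatomer subunits, 5 were called higher in LsATF4-KO livers and all 6 in wild-type livers, with median log2 changes of 0.70 in LsATF4-KO and 0.94 in wild type. Copb1, the β subunit, stood at 122 FPKM with tunicamycin and 46.5 FPKM with DMSO in LsATF4-KO livers, and at 131 FPKM with tunicamycin and 51.1 FPKM with DMSO in wild-type livers, a rise of 2.61-fold and 2.56-fold in the authors' deposited table. Copz1, the ζ subunit, stood at 137 FPKM with tunicamycin and 108 FPKM with DMSO in LsATF4-KO livers, and at 155 FPKM with tunicamycin and 108 FPKM with DMSO in wild-type livers. Copz1 was called in wild-type livers alone, its q being 0.229 in LsATF4-KO livers in the authors' deposited table. Arcn1, the δ subunit, rose 2.18-fold in LsATF4-KO and 2.38-fold in wild-type livers, and Copa, the α subunit, 1.59-fold and 2.01-fold in those genotypes, in the authors' deposited table. Copb2, the β′ subunit, and Cope, the ε subunit, rose by 1.66-fold and 1.47-fold in LsATF4-KO livers and by 1.82-fold and 1.52-fold in wild-type livers in the same table from the authors. The 6 levels spanned a factor of 1.34 with tunicamycin and 2.33 with DMSO in LsATF4-KO livers, and 1.48 with tunicamycin and 2.12 with DMSO in wild-type livers.

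Receptors for cargo divided along their own lines. Of 8, 6 were called higher in LsATF4-KO livers and 5 in wild-type livers. Mcfd2, the soluble partner of Lman1 in carrying coagulation factors V and VIII, stood at 353 FPKM with tunicamycin and 125 FPKM with DMSO in LsATF4-KO livers, and at 472 FPKM with tunicamycin and 166 FPKM with DMSO in wild-type livers. Lman1, the lectin of the pair, stood at 183 FPKM with tunicamycin and 94.3 FPKM with DMSO in LsATF4-KO livers, and at 227 FPKM with tunicamycin and 106 FPKM with DMSO in wild-type livers. Surf4, a receptor for soluble secreted cargo, stood at 275 FPKM with tunicamycin and 99.6 FPKM with DMSO in LsATF4-KO livers, and at 311 FPKM with tunicamycin and 109 FPKM with DMSO in wild-type livers. All 3 were called higher in both genotypes. The p24 proteins Tmed2 and Tmed10 form mixed complexes, yet Tmed2 rose 2.45-fold in LsATF4-KO and 2.38-fold in wild-type livers in the authors' deposited table and Tmed10 was not called. Tmed10 stood at 22.5 FPKM with tunicamycin and 20.7 FPKM with DMSO in LsATF4-KO livers, and at 24.5 FPKM with tunicamycin and 24.1 FPKM with DMSO in wild-type livers. The table holds Tmed10 at 2 loci over the same interval, and the other one, at 14.0 to 19.8 FPKM, was not called either.

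KDEL receptors retrieve ER chaperones, and only part of the family was called. Kdelr2 stood at 176 FPKM with tunicamycin and 52.7 FPKM with DMSO in LsATF4-KO livers, and at 201 FPKM with tunicamycin and 65.2 FPKM with DMSO in wild-type livers, log2 changes of 1.74 ± 0.20 and 1.63 ± 0.20 (recovered SE; changes from the authors' deposited table). Kdelr1 stood at 87.0 FPKM with tunicamycin and 62.6 FPKM with DMSO in LsATF4-KO livers, and at 89.5 FPKM with tunicamycin and 72.6 FPKM with DMSO in wild-type livers, and was called higher in LsATF4-KO livers at 1.39-fold but not in wild-type livers at 1.23-fold in the authors' deposited table. Kdelr3 stood at 7.55 FPKM with tunicamycin and 4.69 FPKM with DMSO in LsATF4-KO livers, and at 8.88 FPKM with tunicamycin and 3.53 FPKM with DMSO in wild-type livers. It was not called, and its interval is shared with Ddx17. Its log2 changes of 0.69 ± 0.63 and 1.33 ± 0.63 in the authors' deposited table (SE) were the least precise of the 48. Kdelr2 lay above Kdelr1 with tunicamycin and below it with DMSO, at 65.1% of the family's FPKM with tunicamycin and 43.9% with DMSO in LsATF4-KO livers, and 67.1% with tunicamycin and 46.1% with DMSO in wild-type livers.

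The response was then compared between genotypes. Of the 48 genes, 34 were called higher and Sar1b lower in both, 2 were called higher in LsATF4-KO livers alone (Sec13 and Kdelr1), 5 in wild-type livers alone (Sec61g, Sec63, Sec24a, Sec24b and Copz1) and 6 in neither (Sec62, Ssr4, Spcs1, Sec24c, Kdelr3 and Tmed10). A call in only 1 genotype does not show a difference, so the difference of the log2 fold changes was tested directly with an approximate z test. This test uses the LsATF4-KO DMSO group, so a difference, that of Sar1b included, cannot be told apart from the lane of that group. Of the members 0 passed after Benjamini-Hochberg adjustment over 14510 loci, where 147 loci (1.01%) did, and the smallest adjusted p was 0.910. Without adjustment 1 member, Sar1b, had p under 0.05, where 5.26% of loci did. The difference for Sar1b was 0.55 ± 0.28 (SE), the fall being smaller in LsATF4-KO livers, and its adjusted p was that smallest value. Differences of LsATF4-KO minus wild type ran from −0.64 for Kdelr3 to 0.55 for Sar1b, with a median of −0.04, 22 above 0 and 26 below. For 41 of the 48 the 95% interval of the difference lay within 2-fold either way, and for Srp54a, Sec61g, Ssr1, Ssr2, Spcs1, Sar1b and Kdelr3 it did not. Across the 48 genes the responses had a Pearson r of 0.953 and a Spearman rho of 0.948, against 0.845 and 0.856 over all 14510 loci, where genes share libraries and are not independent replicates. On simulated data the test recovered 24% of true log2 differences of 1 and 70% of differences of 2. Those differences were planted in loci drawn from all 14510, with normal noise of the SEs that the test itself uses. The median SE was 0.38 over all 14510 loci and 0.29 over the 48, so the rates are not those of the 48 genes.

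**Figure D3:**
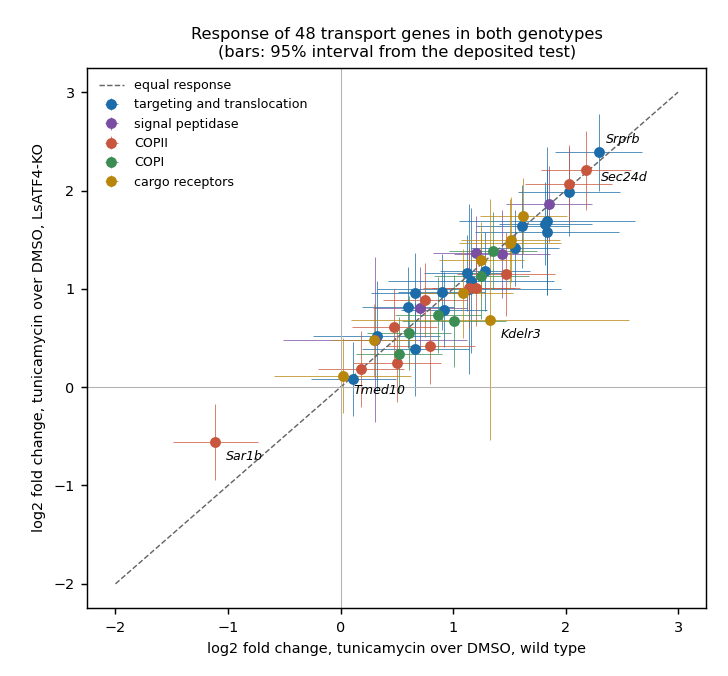
Log2 fold change of tunicamycin over DMSO in LsATF4-KO livers (vertical axis) against wild-type livers (horizontal axis) for the 48 genes, coloured by class, with 95% intervals recovered from the deposited test and a dashed line of equal response. Points follow the line from Sar1b, at −0.56 in LsATF4-KO and −1.11 in wild type, to Srprb, at 2.39 in LsATF4-KO and 2.29 in wild type.

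Between genotypes, calls among the 48 genes were few. With tunicamycin 0 of the 48 were called between LsATF4-KO and wild-type livers by the authors' Cuffdiff test, 0 had an unadjusted p under 0.05, and 5.92% of all 14919 tested loci were called (3.73% higher and 2.19% lower). With DMSO 0 were called higher and 1 lower, against 2.86% of all 14788 tested loci (1.39% higher and 1.47% lower), and 1 had an unadjusted p under 0.05. That member was Sar1b, at 144 FPKM in LsATF4-KO and 211 FPKM in wild-type livers with DMSO, a log2 change of −0.55 ± 0.20 (SE; q = 0.0286) in the authors' deposited table. The call was lost when p-values were adjusted within this comparison alone, and the group cannot be told apart from its lane here. With tunicamycin Sar1b stood at 97.7 FPKM in LsATF4-KO and 97.5 FPKM in wild-type livers. The 95% interval of the genotype difference lay within 2-fold for 47 of 48 genes with tunicamycin, all but Kdelr3, and for 46 of 48 with DMSO, all but Spcs1 and Kdelr3.

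Most members sat slightly below wild type without a call. The median log2 change of LsATF4-KO over wild type was −0.12 with tunicamycin, with 44 of 48 below 0, and −0.13 with DMSO, with 36 of 48 below 0. Over all tested named loci the medians were −0.03 with tunicamycin and −0.07 with DMSO, with 55.3% and 59.3% below 0. Mcfd2 lay lowest with tunicamycin, at 353 FPKM in LsATF4-KO and 472 FPKM in wild-type livers, a log2 change of −0.42 ± 0.23 (SE) that was not called in the authors' deposited table. Sec11a came next, at 152 FPKM in LsATF4-KO and 193 FPKM in wild-type livers with tunicamycin, a log2 change of −0.35 ± 0.19 (SE) in the authors' deposited table, also not called. With DMSO the log2 changes were of like size, at −0.41 ± 0.21 (SE) for Mcfd2 and −0.36 ± 0.20 (SE) for Sec11a, and were not called.

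**Figure D4:**
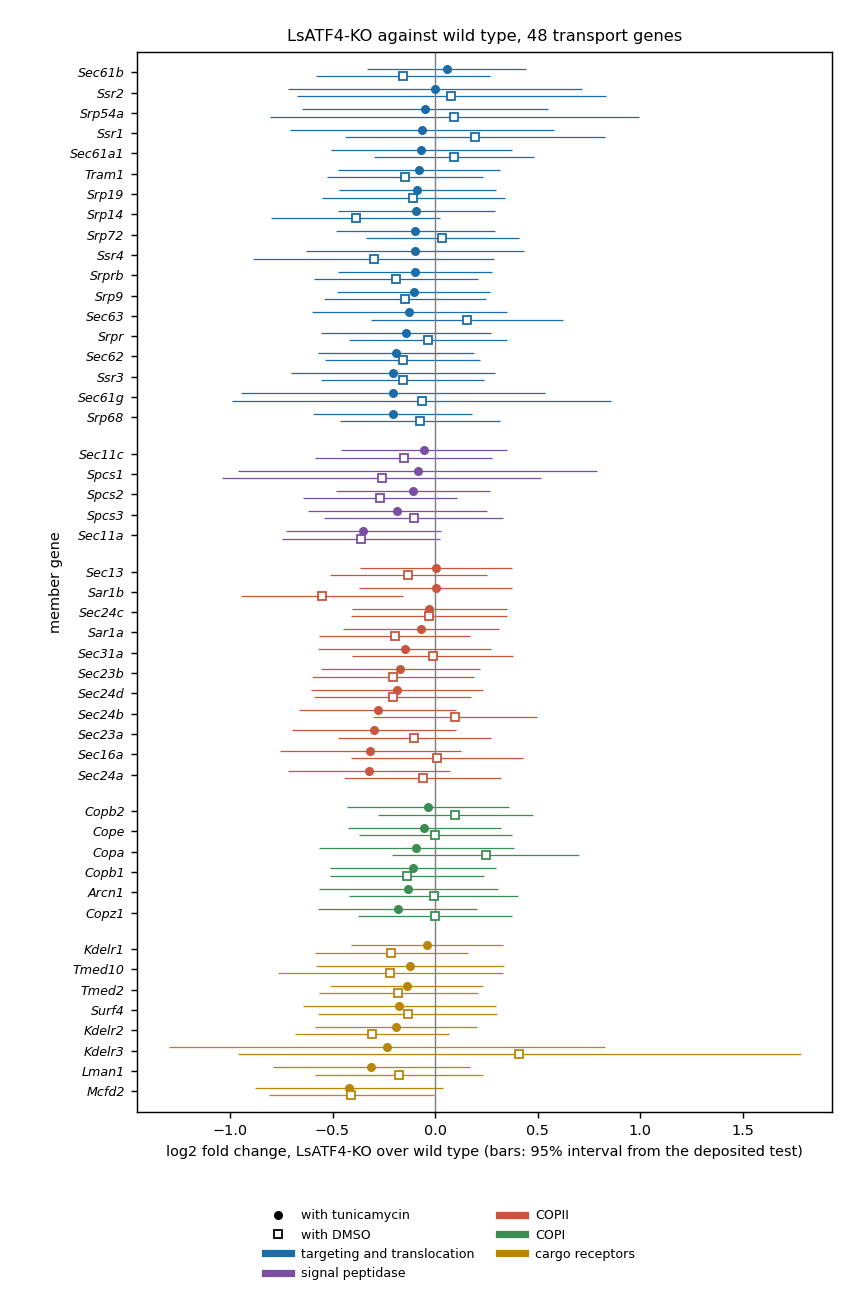
Log2 fold change of LsATF4-KO over wild type for each of the 48 genes, with filled circles for livers with tunicamycin and open squares for livers with DMSO, and 95% intervals recovered from the deposited test. With tunicamycin all points lie between −0.42 (Mcfd2) and 0.06 (Sec61b); with DMSO Sar1b stands at −0.55.

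Other genes of the same route gave a wider background. Lists of 94 further symbols matched 92 loci. Among these is the merged locus of Srp54a, Srp54b and Srp54c already described above, so it is counted here again. In LsATF4-KO livers 43 of 89 tested were called higher and 9 lower (all loci: 18.1% and 14.8%), and in wild-type livers 41 of 88 higher and 10 lower (all loci: 18.1% and 19%), while 0 were called between genotypes with either treatment by the authors' Cuffdiff test. The oligosaccharyltransferase, which attaches the glycans that tunicamycin blocks, had 8 of 11 subunits called higher and 0 lower in each genotype. Its catalytic subunit Stt3a stood at 147 FPKM with tunicamycin and 50.6 FPKM with DMSO in LsATF4-KO livers, and at 166 FPKM with tunicamycin and 50.2 FPKM with DMSO in wild-type livers. Regulators of COPI and tethers for Golgi-to-ER vesicles had 11 of 17 called higher and 0 lower in each genotype. Arfgap3, a GTPase-activating protein for the ARF1 switch of COPI, stood at 34.5 FPKM with tunicamycin and 4.32 FPKM with DMSO in LsATF4-KO livers, and at 39.8 FPKM with tunicamycin and 4.98 FPKM with DMSO in wild-type livers. Its log2 changes of 2.997 in LsATF4-KO and 2.998 in wild-type livers in the authors' deposited table were larger than that of any of the 48 members. The tether subunits Nbas and Rint1 were called higher in both genotypes too.

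Of other COPII and exit-site genes, 10 of 23 were called higher and 4 lower in LsATF4-KO livers, and 11 of 23 higher and 5 lower in wild-type livers. The counts of lower calls were near the all-loci shares of 14.8% in LsATF4-KO and 19% in wild type. Stx5a, a SNARE for fusion at the Golgi, stood at 137 FPKM with tunicamycin and 26.4 FPKM with DMSO in LsATF4-KO livers, and at 176 FPKM with tunicamycin and 32.2 FPKM with DMSO in wild-type livers. Its partner Sec22b and the exit-site protein Tfg also rose, with log2 changes of 1.99 and 2.02 in LsATF4-KO and 2.01 and 1.88 in wild-type livers in the authors' deposited table. Rab1b, a GTPase of ER-to-Golgi traffic, stood at 42.7 FPKM with tunicamycin and 72.3 FPKM with DMSO in LsATF4-KO livers, and at 39.8 FPKM with tunicamycin and 81.9 FPKM with DMSO in wild-type livers, and fell in both. Sec16b, the paralogue of Sec16a, stood at 18.7 FPKM with tunicamycin and 31.4 FPKM with DMSO in LsATF4-KO livers, and at 22.0 FPKM with tunicamycin and 35.8 FPKM with DMSO in wild-type livers. Sec16b thus fell in both genotypes while Sec16a rose. Trappc1, of the TRAPP tether, was called lower in both as well.

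Among other targeting and insertion factors, calls numbered 6 of 19 higher and 3 lower in LsATF4-KO livers and 4 higher and 3 lower in wild-type livers, where the shares over all loci were 18.1% higher and 14.8% lower in LsATF4-KO and 18.1% higher and 19% lower in wild type. The merged Srp54a, Srp54b and Srp54c locus is among the higher calls in both genotypes. In wild-type livers the count was near that background. Emc1 and Emc10, subunits of the ER membrane protein complex, which inserts membrane proteins, fell in both genotypes, Emc10 to 30.4 FPKM with tunicamycin, against 48.2 with DMSO, in LsATF4-KO livers and to 29.1 FPKM with tunicamycin, against 50.4 with DMSO, in wild-type livers. Get4 and Camlg (listed as Caml), of the pathway for tail-anchored proteins, rose in both. Tram2, picked out after its values were seen, fell in both where Tram1 rose, with log2 changes of −1.82 in LsATF4-KO and −1.97 in wild-type livers in the authors' deposited table. Of the other p24 proteins and cargo receptors, 8 of 19 were called higher and 2 lower in LsATF4-KO livers and 7 of 18 higher and 2 lower in wild-type livers. Tmed9 stood at 216 FPKM with tunicamycin and 61.0 FPKM with DMSO in LsATF4-KO livers, and at 221 FPKM with tunicamycin and 61.3 FPKM with DMSO in wild-type livers, and Tmed3 and Yipf5 were also called higher in both. Ergic3, a receptor that cycles between ER and Golgi, and Bcap31, an ER membrane sorting protein, were called lower in both.

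**Figure D5:**
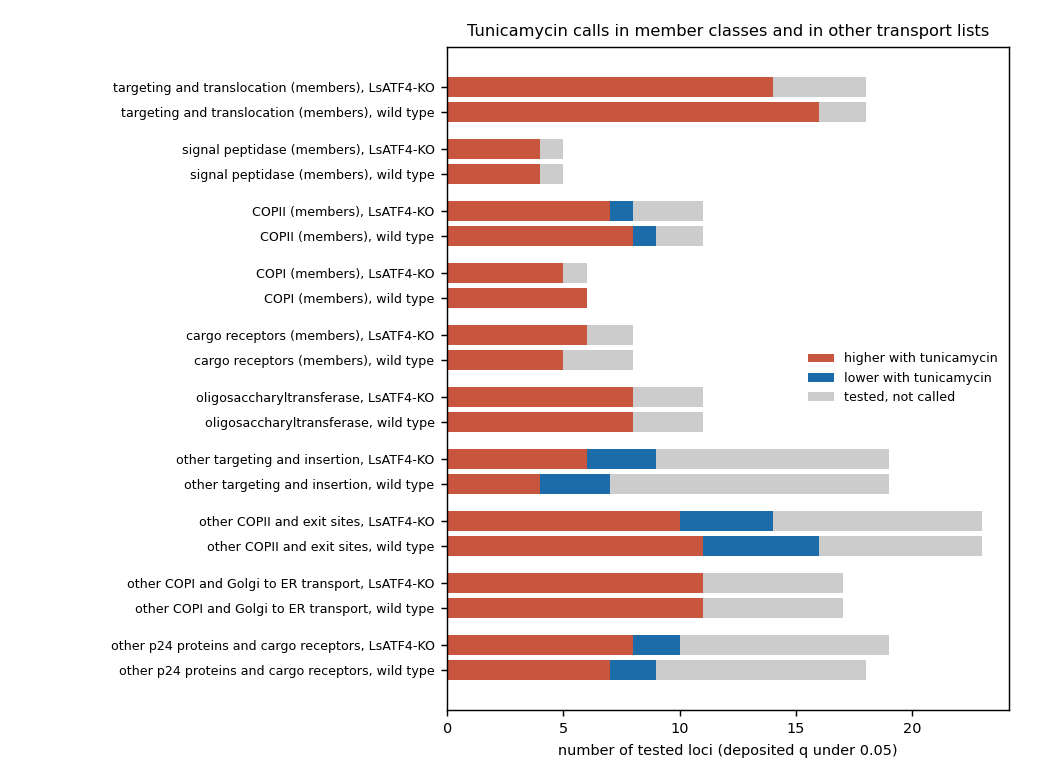
Number of tested loci called higher (red), called lower (blue) or not called (grey) with tunicamycin over DMSO at a deposited q under 0.05, for the 5 classes of members and 5 further lists, each with LsATF4-KO above wild type. Blue segments appear in the COPII class, where they stand for Sar1b alone, and in 3 of the further lists.

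Some values rest on loci that the table does not part cleanly. Besides Srp54a and Tmed10, Spcs3 and Arcn1 stood at 2 loci over the same interval, and the locus with the higher mean was used. The lesser Spcs3 locus, at 5.49 to 14.2 FPKM, and the lesser Arcn1 locus, at 8.69 to 17.2 FPKM, were not called. In all, 9 members lay in an interval shared with other named genes. These were Srp54a, Srpr, Ssr4, Spcs1, Sec24c, Copa, Copz1, Kdelr3 and Surf4. Of them, 4 (Ssr4, Spcs1, Sec24c and Kdelr3) are among the 6 members called in neither genotype. Srp54a, Srpr, Copa and Surf4 were called higher in both genotypes, and Copz1 in wild-type livers alone. Sec24c shares its interval only with Mir6946, and its SEs were 0.195 in LsATF4-KO and 0.194 in wild-type livers. Whether a shared interval affected the calls was not tested.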

How the data were processed

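Livers of the 4 groups were sequenced as poly(A)-selected TruSeq libraries with ERCC spike-in RNA, per the labels' protocols. Reads were processed with bcl2fastq, TopHat2 2.0.4, Cufflinks and Cuffdiff on mm9, per the submitters' processing notes. Annotation, filters and scaling between libraries: not given in the sources used here. Per the file headers, the authors deposited 1 FPKM per locus and group, with the 3 libraries pooled, and for 6 comparisons a test statistic (a score), its p-value, its q-value and the log2 fold change, of which 4 comparisons were used. Benjamini-Hochberg adjustment over all 90828 tests gave the deposited q-values within 5.29e-07, and the smallest deposited p-value is 5e-05. Depth, values per library and library spread were not used here, and no label says whether the 3 libraries of a group came from separate animals.

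A call needs test status OK and a deposited q under 0.05. For a symbol at several loci, the sole-name locus highest in mean FPKM was taken. The SE of a deposited log2 fold change is its size over the test statistic times a scale of 1.73 or 1.74 per comparison, set by p-values from 0.001 to 0.5, and 95% intervals use it with a normal quantile of 1.96. The response difference is an approximate two-sided z test, adjusted by Benjamini-Hochberg over 14510 loci and tested on simulated data. Alternatives were adjustment within a comparison, sole-locus members, a minimum of 5 FPKM, a 2-fold minimum, q under 0.01, a pseudocount of 1 and centring. Members, lists, motifs and markers were chosen with earlier results of these data known. All members could be named. Of other lists, the 3 largest called changes per direction with at least 5 FPKM were named, and Tram2 besides. Motifs were searched in RefSeq promoters of GRCm38.p6. The software was matplotlib 3.10.9, scipy 1.17.1, pandas 2.3.3 and numpy 2.4.6 under Python 3.11.15.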

Additional observations from a re-analysis of the deposited data

How the results depend on the processing

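With 1 pooled value per locus and group, no library could be left out, and depth limits cannot be given. No paired analysis was possible because the table has no values per library and no label pairs libraries across groups. The counts of members called higher with tunicamycin stayed between 24 and 36 in LsATF4-KO livers and between 27 and 40 in wild-type livers under every alternative run, the lowest with a 2-fold minimum. Adjustment within the comparison alone added Sec13 in wild-type livers, and leaving out members at several loci removed Srp54a, Spcs3 and Arcn1 in both genotypes. Members called lower with tunicamycin numbered 0 in LsATF4-KO livers with q under 0.01 or a 2-fold minimum, where Sar1b was lost, and 1 in wild-type livers under all alternatives. Members called lower in LsATF4-KO against wild type with DMSO numbered 0 with adjustment within the comparison, with q under 0.01 and with a 2-fold minimum, again through Sar1b. The number of all loci whose responses differed was 73 at a minimum of 5 FPKM, against 147 without it; its cause was not tested, and members stayed at 0. No called fold change of a member changed sign under a pseudocount of 1 or centring on all tested named loci, but neither could have changed one. A pseudocount keeps the sign of a fold change, and the medians used for centring were far smaller than any called change of a member.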
